A study of Mus musculus with 3 samples.

Results

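In mouse pre-B leukaemia cells grown in culture, 466 of the 18142 called H3K4me3 peaks overlapped at least 2 separate H3K27ac peaks by 1 bp or more. These 466 regions, called spanning peaks here, were chosen by the called positions of the peaks in both lists. They made up 2.57% of the H3K4me3 list (exact 95% binomial interval 2.34 to 2.81%), a count that is a description and not a test. Of the other H3K4me3 peaks, 15151 overlapped exactly 1 H3K27ac peak (single-overlap peaks) and 2525 overlapped none. The study profiled 1 culture condition, without stimulation or treatment, by chromatin immunoprecipitation and sequencing: 1 library for trimethylation of lysine 4 on histone H3 (H3K4me3), 1 for acetylation of its lysine 27 (H3K27ac) and 1 immunoprecipitated with IgG, an antibody control. All 3 samples came from cells transformed by Bcr-Abl, a fusion tyrosine kinase, and kept in medium with 10% serum; whether the culture is 1 clone is not stated in the labels. The peaks are given by position on the mouse build mm9, counted from 1, with the score that the authors deposited for each peak. The sources do not define that score. The value 3100 was the most frequent in both lists, and values of 3100 or more are called the ceiling here. It was not the maximum, since 243 H3K27ac and 75 H3K4me3 peaks scored above it. With 1 library per mark there are no replicates, no test between samples was possible, and the intervals cover counting error over peaks only. Sequencing depth is unknown.

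H3K4me3 is laid down by methyltransferases of the SET1 and MLL families and marks the nucleosomes around the start sites of active or poised genes. H3K27ac is laid down by the acetyltransferases p300 and CBP and marks nucleosomes at active promoters and enhancers. At an active promoter the 2 marks usually occupy the nucleosomes on either side of a nucleosome-poor start site, and a start site that fires in both directions can carry them on both flanks. A peak caller reports a mark as 1 interval or as several, depending on whether the signal between its summits stays above the caller's threshold.

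The working name of the set, peaks that span several H3K27ac peaks, held for the lists in a narrow sense. The number of H3K27ac peaks met was 2 in 450 spanning peaks and 3 in 16, and no spanning peak met more. Spanning was also partial. H3K27ac reached past both ends of the H3K4me3 peak in 142 spanning peaks (30.5%, interval 26.3 to 34.9%), past 1 end in 193 and past neither end in 131. Among the 450 with 2 H3K27ac peaks, both lay wholly inside the H3K4me3 peak in 130 (28.9%, interval 24.7 to 33.3%). For single-overlap peaks, H3K27ac reached past both ends in 40.7% (interval 39.9 to 41.5%) and past neither in 26.7% (interval 26.0 to 27.4%). The groups differed in width, with medians of 2671.5 bp for spanning and 1990 bp for single-overlap peaks, and these shares were not compared at equal width.

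The gaps that divided H3K27ac inside the spanning peaks were short. There were 482 of them, running from the end of 1 H3K27ac peak to the start of the next, with a median of 81.5 bp (interval 72 to 93 bp) and quartiles of 34 and 135 bp. In all, 415 gaps (86.1%, interval 82.7 to 89.1%) were shorter than 200 bp, a length close to that of a nucleosome with its linker, and 159 were shorter than 50 bp. Only 21 gaps reached 500 bp and 3 reached 1000 bp. Most spanning peaks therefore held 2 H3K27ac peaks that nearly touched. The membership depends on this: when H3K27ac peaks within 200 bp of each other were joined first, 67 spanning peaks were left, and when those within 500 bp were joined, 21 were left.

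**Figure D1:**
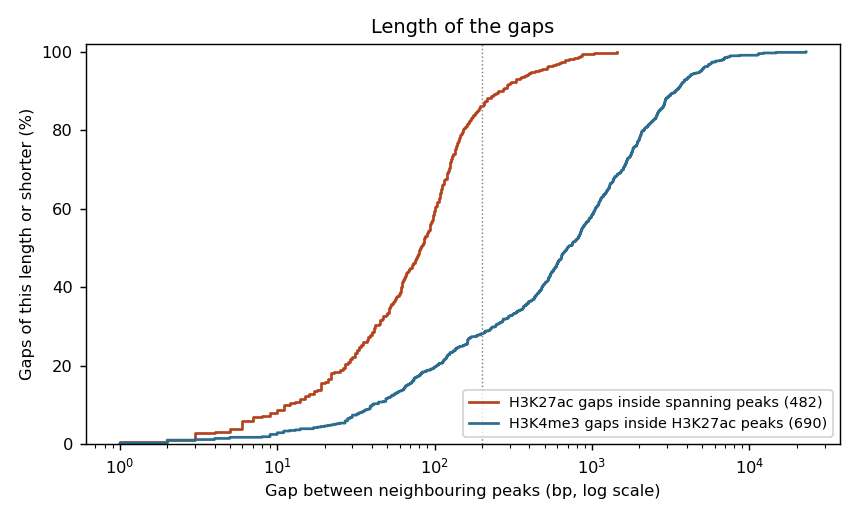
Cumulative share of gaps (y axis, percent) by gap length (x axis, bp, log scale), for the 482 H3K27ac gaps inside spanning peaks and the 690 H3K4me3 gaps inside H3K27ac peaks that overlap 2 or more H3K4me3 peaks. The dotted line stands at 200 bp, and 86.1% of the first kind and 28.1% of the second lie below it.

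The reverse arrangement had longer gaps. The 589 H3K27ac peaks that overlapped 2 or more H3K4me3 peaks contained 690 gaps between H3K4me3 peaks, with a median of 697 bp (interval 606 to 844 bp). Gaps shorter than 200 bp made up 86.1% of those in spanning peaks and 28.1% (interval 24.8 to 31.6%) of those in the reverse arrangement, and gaps of 500 bp or more made up 4.36% (interval 2.72 to 6.58%) and 59.3% (interval 55.5 to 63.0%). The longest gap was 1439 bp in a spanning peak and 22913 bp in the reverse arrangement. An enclosing peak must be longer than the gaps it holds. The widths of the enclosing peaks were not compared, and the part of width in the difference was not tested.

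Short gaps between H3K27ac peaks were not limited to H3K4me3. The whole H3K27ac list held 2176 pairs of neighbours less than 200 bp apart. A single H3K4me3 peak bridged 415 of these pairs (19.1%, interval 17.4 to 20.8%), whereas in 1138 pairs (52.3%) neither peak met H3K4me3 at all. A further 515 pairs had H3K4me3 on 1 of the 2 peaks, and 108 had it on both without a peak across the gap. Among pairs further apart, the share with H3K4me3 on neither peak was lower. It was 48.1% from 200 to 500 bp and 43.0% from 500 to 1000 bp. From 1000 to 2000 bp it was 40.9%, and from 2000 to 5000 bp 32.9%. Bridging was about as frequent below 50 bp (19.3%, interval 16.6 to 22.1%) as from 50 to 200 bp (18.9%, interval 16.9 to 21.1%). It was seen for 46 of 908 pairs from 200 to 500 bp apart (5.07%, interval 3.73 to 6.70%) and for 18 of 1018 pairs from 500 to 1000 bp apart (1.77%, interval 1.05 to 2.78%). An H3K4me3 peak must be longer than the gap to bridge it. The part of this in the lower shares at longer distances was not tested.

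The gaps were spread along the spanning peaks, and the share near the middle differed between the settings used for the lists. With the position of a gap's midpoint counted from 0 at the low-coordinate end to 1 at the high-coordinate end, 206 gaps lay in the central zone from 0.333 to 0.667 (42.7%, interval 38.3 to 47.3%), 148 below it and 128 above it. In bins of 0.1, the fullest were those from 0.2 to 0.3 with 67 gaps, from 0.3 to 0.4 with 67 and from 0.6 to 0.7 with 73, while the bins on either side of the middle held 50 and 53. In the reverse arrangement the same pair of middle bins held 168 and 159 of 690 gaps and were the fullest. A gap that is long for its enclosing peak cannot have its midpoint near an end. The gaps of the reverse arrangement were longer, and positions were not compared at equal gap length. A gap at the very end of a spanning peak leaves a short overlap with the outer H3K27ac peak, and without overlaps under 100 bp the share in the central zone was 46.9%. It was 52.9% when peaks scoring below 100 were left out of both lists, and 60.9% when the H3K27ac list was shortened to the length of the H3K4me3 list. With no peaks removed, it was 43.3 and 57.1% with H3K27ac joined within 200 and 500 bp, and 48.5% with H3K4me3 joined within 1000 bp. The part of weak peaks in these shares was not tested. Strand was not known, so the low end is not the upstream end.

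**Figure D2:**
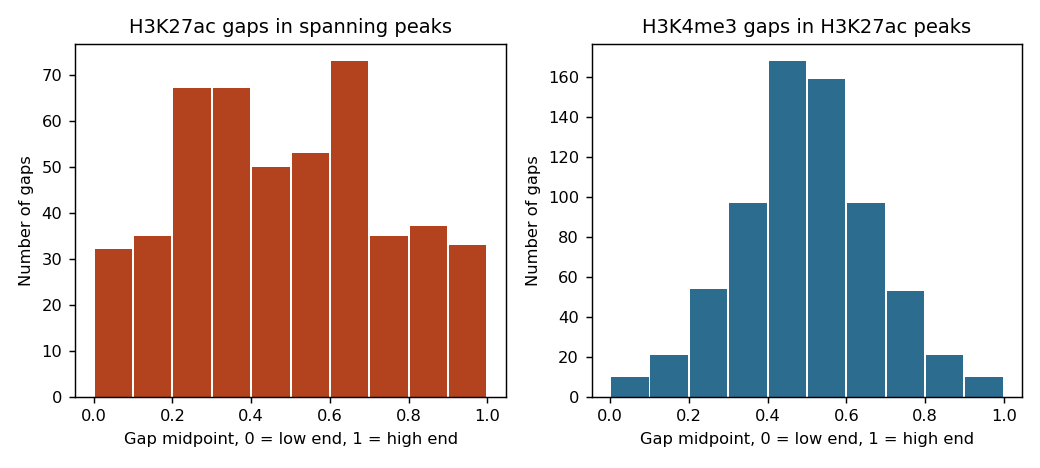
Number of gaps (y axis) by the position of their midpoint along the enclosing peak (x axis, 0 at the low-coordinate end and 1 at the high-coordinate end, in bins of 0.1). Left, the 482 H3K27ac gaps in spanning peaks, with 73 in the fullest bin; right, the 690 H3K4me3 gaps in H3K27ac peaks, with 168 in the fullest bin, next to the middle.

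The 2 H3K27ac peaks under a spanning peak were usually unequal. In the 450 spanning peaks with 2, the scores were tied in 13. In the other 437, the lower score had a median of 137 (quartiles 71.8 and 462) and the higher score a median of 1875 (quartiles 778 and 3100). Each pair was ordered by score, so some difference between these medians is given by construction. H3K27ac pairs outside spanning peaks were not compared in this way, in score or in width. The lower-scoring peak was also the shorter in 396 of the 437 (90.6%, interval 87.5 to 93.2%), with a median width of 777 bp against 1623 bp for the higher-scoring peak. It covered a median of 610 bp of the H3K4me3 peak, and the higher-scoring peak covered 1496 bp. The lower score was below 100, near the floor of the list at 50.01, in 169 of the 437 (38.7%, interval 34.1 to 43.4%). Which side carried it was close to even: the low-coordinate side in 232 of 437 (53.1%, interval 48.3 to 57.8%). Both H3K27ac peaks were at the ceiling in 14 of the 450 spanning peaks (3.11%, interval 1.71 to 5.16%), 1 was in 157, and neither was in 279.

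**Figure D3:**
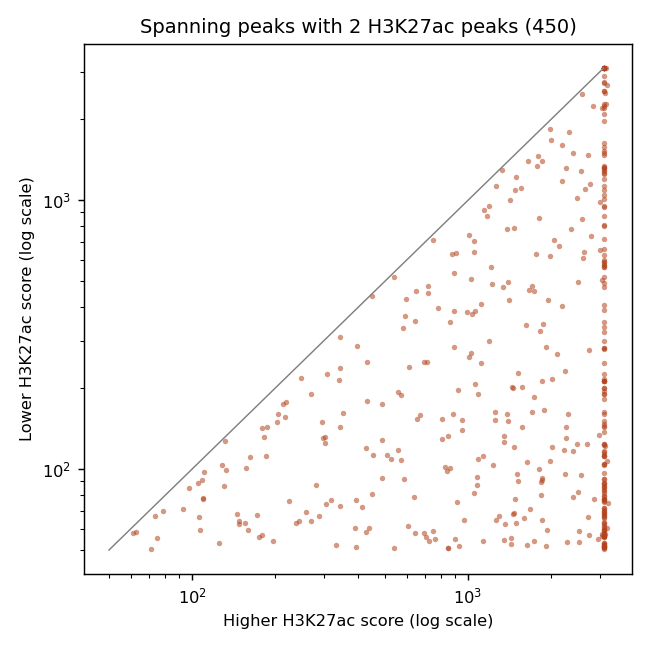
Lower against higher H3K27ac score of the 450 spanning peaks with 2 H3K27ac peaks (both axes logarithmic, authors' scores without unit). Each point is 1 spanning peak, the grey line marks equal scores, and the column of points at the right edge holds those whose higher score is at the ceiling (3100 or more).

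Spanning peaks were wide for H3K4me3 peaks. Their median width was 2671.5 bp (interval 2588 to 2805 bp, quartiles 2079 and 3544.75 bp), against 1990 bp (interval 1971 to 2009 bp) for single-overlap peaks. A wider peak has more room for a second H3K27ac peak, and width is therefore tied to the rule. The share of H3K4me3 peaks that were spanning was 0.335% below 1000 bp (15 of 4481), 1.60% from 1000 to 2000 bp (92 of 5741), 3.48% from 2000 to 3000 bp (174 of 4993), 5.56% from 3000 to 4000 bp (104 of 1870) and 7.87% from 4000 to 6000 bp (70 of 890). Above that it was 6.59% (11 of 167, interval 3.33 to 11.5%), so most of the widest H3K4me3 peaks were not spanning either. Peaks of 4000 bp or more numbered 81 among spanning peaks (17.4%), and 5.83% of all H3K4me3 peaks were that wide.

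The H3K4me3 score was at the ceiling in 389 spanning peaks (83.5%, interval 79.8 to 86.7%) and in 57.5% of single-overlap peaks (interval 56.7 to 58.3%), with 50.3% over the whole list. Width moved with the score, and within width classes the shares were closer to each other. From 2000 to 3000 bp the H3K4me3 score was at the ceiling in 93.7% of spanning peaks (interval 89.0 to 96.8%) and 88.6% of single-overlap peaks (interval 87.7 to 89.5%). From 3000 to 4000 bp the shares were 96.2 and 96.8%, and from 4000 to 6000 bp they were 98.6 and 98.4%, with overlapping intervals. From 1000 to 2000 bp the ceiling was reached by 46 of 92 spanning peaks (interval 39.4 to 60.6%) and by 36.2% of single-overlap peaks (interval 34.9 to 37.6%). None of the 15 spanning peaks below 1000 bp was at the ceiling.

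H3K27ac scored lower at spanning peaks of a given width. The highest H3K27ac score met was at the ceiling in 180 of the 466 spanning peaks (38.6%, interval 34.2 to 43.2%) and in 45.4% of single-overlap peaks (interval 44.6 to 46.2%), where 24.1% of all H3K27ac peaks reached the ceiling. At equal width the contrast widened. From 2000 to 3000 bp the shares were 28.2% (interval 21.6 to 35.5%) of spanning peaks and 53.1% (interval 51.6 to 54.5%) of single-overlap peaks. From 3000 to 4000 bp they were 55.8% (interval 45.7 to 65.5%) and 90.0% (interval 88.5 to 91.4%), and from 4000 to 6000 bp 75.7% (interval 64.0 to 85.2%) and 97.8% (interval 96.6 to 98.7%). The intervals did not overlap in these 3 classes or from 1000 to 2000 bp, where the shares were 9.78% (interval 4.57 to 17.8%) and 23.4% (interval 22.2 to 24.6%). They overlapped in the narrowest and the widest class, which held 15 and 11 spanning peaks. The H3K27ac score belongs to the list whose division into peaks chose the spanning peaks, and a divided stretch gives narrower peaks, so these values describe the set and are no test.

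**Figure D4:**
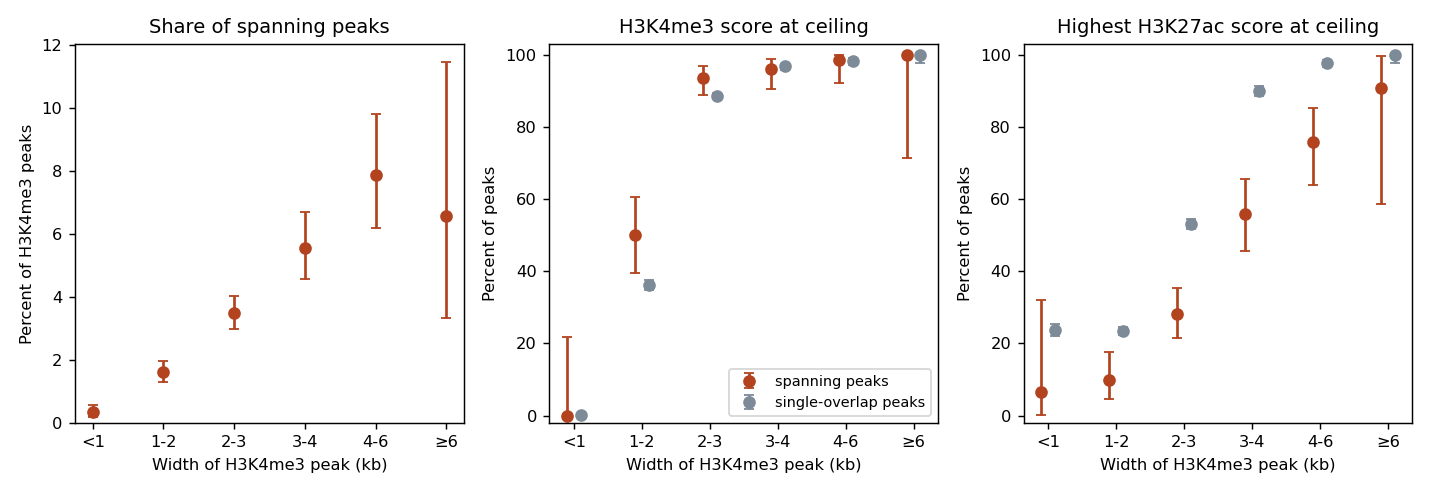
By width of the H3K4me3 peak (x axes, kb): the percent of H3K4me3 peaks that were spanning (left), the percent with an H3K4me3 score at the ceiling (middle) and the percent whose highest H3K27ac score was at the ceiling (right), with exact 95% intervals as bars. In the right panel spanning peaks lie below single-overlap peaks in every class, for example 55.8 against 90.0% at 3 to 4 kb.

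Among H3K4me3 peaks at the ceiling, the share that were spanning was lower where the highest H3K27ac score was 2000 or more. Of the 454 such peaks whose highest H3K27ac score was below 500, 35 were spanning (7.71%, interval 5.43 to 10.6%). The share was 6.40% (42 of 656) at scores from 500 to 1000, 6.48% (95 of 1466) from 1000 to 2000, 3.44% (50 of 1454) from 2000 to the ceiling and 3.29% (167 of 5073, interval 2.82 to 3.82%) at the ceiling. The spanning peaks of the lowest class were also the narrowest, with a median width of 2026 bp, and those of the highest class the widest, with 3595 bp. These classes regroup 389 of the 466 spanning peaks and are not matched for width. Their scores come from the list that chose the spanning peaks, so here too the values are no test.

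The summed length of H3K27ac peaks was of similar size in both kinds of peak below 6000 bp. Summed over the H3K27ac peaks met, it had a median of 2305 bp for spanning peaks and 2334 bp for single-overlap peaks of 2000 to 3000 bp, and 3273.5 and 3378 bp for those of 3000 to 4000 bp. At 6000 bp or more it was 7356 and 8752 bp. H3K27ac covered a median of 88.6% of a spanning peak (interval 86.9 to 89.8%) and 95.8% of a single-overlap peak (interval 95.5 to 96.1%). A spanning peak must contain a gap, so none was covered in full, whereas 40.8% of single-overlap peaks were. A median of 323.5 bp of a spanning peak (interval 287 to 351 bp) had no H3K27ac while the median gap was 81.5 bp. Coverage below 70% was found in 41 spanning peaks (8.80%, interval 6.39 to 11.7%) and in 8.62% of single-overlap peaks (interval 8.18 to 9.08%).

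The 10 widest spanning peaks measured 6.07 to 9.35 kb, and all 10 had an H3K4me3 score at the ceiling. The widest, W1, lay on chromosome 5 (114245717 to 114255061) and met H3K27ac peaks of 6065 and 8035 bp, both at the ceiling and 85 bp apart. The second of these ran 4618 bp past the end of the H3K4me3 peak and met another H3K4me3 peak as well. Both H3K27ac peaks of this region were thus strongly scored, an arrangement shared by only 14 spanning peaks. The next, W2 on chromosome 12 (70293056 to 70301418, 8363 bp), combined an H3K27ac peak of 1262 bp scoring 160 with 1 of 6206 bp at the ceiling, 154 bp apart and both inside the H3K4me3 peak. W3 on chromosome 6 (127098014 to 127105980, 7967 bp) had an H3K27ac peak of 7867 bp at the ceiling, followed after 9 bp by 1 of 854 bp scoring 123. In W2 and W3 the weaker H3K27ac peak stood at 1 edge and a ceiling peak filled most of the rest.

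W4 on chromosome 19 (5066482 to 5073636, 7155 bp) met 3 H3K27ac peaks. The first, of 4121 bp, was at the ceiling, and after 820 bp came peaks of 870 bp scoring 176 and 997 bp scoring 244, which were 35 bp apart. W5 on chromosome 17 (24855341 to 24861790, 6450 bp) had H3K27ac peaks of 4022 bp at the ceiling and 1754 bp scoring 1094, 518 bp apart. W6 on chromosome 3 (89194506 to 89200897, 6392 bp) had 1 of 6579 bp at the ceiling and 1 of 777 bp scoring 69.2, 709 bp apart. These 3 are the spanning peaks among the 10 widest that had a gap of 500 bp or more. W7 on chromosome 16 (32160349 to 32166631, 6283 bp) met peaks scoring 305, 84.1 and 3100 in that order, with gaps of 131 and 34 bp.

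W8 on chromosome 11 (48666163 to 48672298, 6136 bp) was the one among the 10 with no H3K27ac peak at the ceiling. Its H3K27ac peaks, of 1836 and 2961 bp, scored 710 and 749 and were 13 bp apart, and H3K27ac stopped 326 bp short of the low end and 1000 bp short of the high end. W9 on chromosome 8 (87499618 to 87505731, 6114 bp) qualified by a 5 bp overlap with an H3K27ac peak of 1285 bp, and its other H3K27ac peak, of 11188 bp, met 3 H3K4me3 peaks. W10 on chromosome 2 (34625737 to 34631810, 6074 bp) had H3K27ac peaks of 1768 bp at the ceiling and 1634 bp scoring 2542, 6 bp apart at the low end. The remaining 2646 bp of W10 had no H3K27ac, and its coverage of 56.0% was the lowest of the 10.

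**Figure D5:**
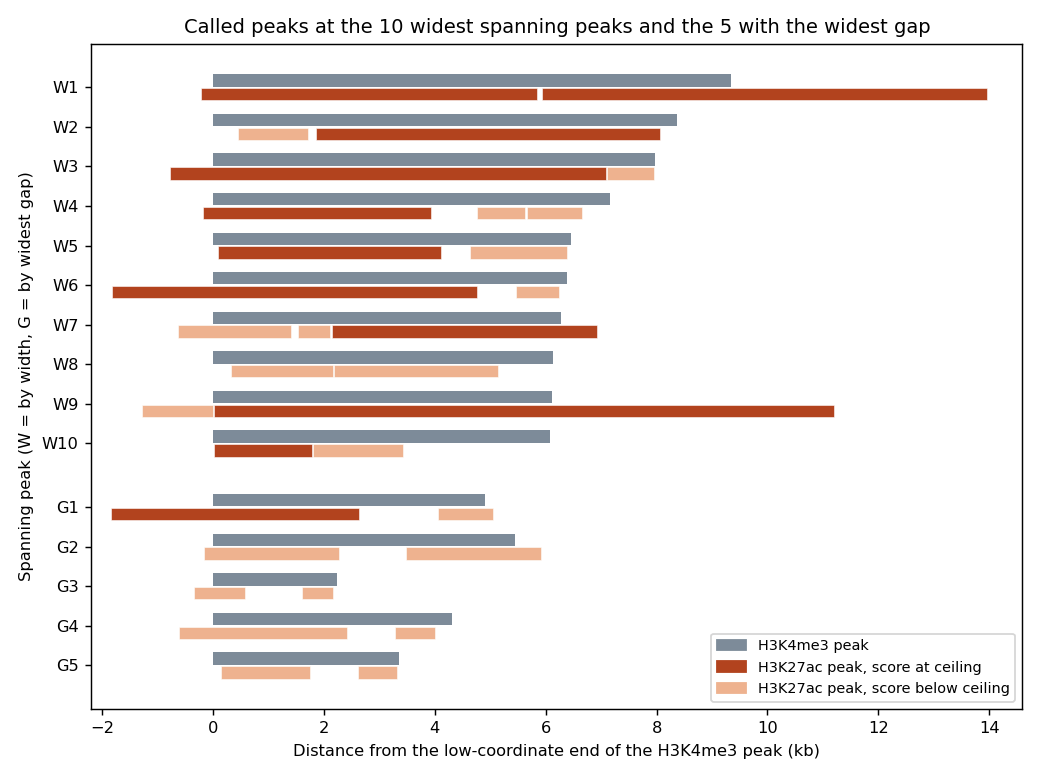
Called H3K4me3 peaks (grey) and the H3K27ac peaks they meet (dark, score at the ceiling; light, below it), drawn to scale against the distance from the low-coordinate end of the H3K4me3 peak (kb), for the 10 widest spanning peaks (W1 to W10) and the 5 with the widest gap (G1 to G5). White lines mark the ends of H3K27ac peaks whose gap is too short to see. In W1 both H3K27ac peaks are dark, and the gaps of G1 to G5 measure 861 to 1439 bp.

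The 16 spanning peaks with 3 H3K27ac peaks measured 2301 to 7155 bp (median 4561.5 bp), and 15 had an H3K4me3 score at the ceiling. Their 32 gaps measured 5 to 820 bp, with a median of 112 bp. The middle H3K27ac peak had the highest score in 5 of the 16 and an outer one in the rest. W4 and W7 were the widest of them. The next was on chromosome 4 (133715652 to 133720990, 5339 bp), where the H3K27ac peaks scored 3100, 332 and 875 with gaps of 591 and 73 bp. On chromosome 10 (96078533 to 96083728, 5196 bp) the middle peak was at the ceiling, between flanks scoring 356 and 895. On the X chromosome (10292111 to 10297203, 5093 bp) the scores mounted along the region, 172, 996 and 3100, with gaps of 61 and 5 bp. The other 5 named by number of peaks measured 4241 to 4977 bp. They were on chromosome 11 (97846030 to 97851006 and 69482554 to 69486794), chromosome 10 (74522017 to 74526836), chromosome 6 (6809528 to 6814128) and chromosome 5 (88982063 to 88986584). Of these 5, the region on chromosome 6 had the lowest highest score, 841, and its other H3K27ac peaks scored 52.8 and 92.1. The second region on chromosome 11 had a ceiling peak of 2057 bp in the middle, between flanks scoring 64.2 and 812.

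A small class of 21 spanning peaks had an H3K27ac gap of 500 bp or more, the length of a few nucleosomes. They measured 1631 to 7155 bp (median 4303 bp), 17 had an H3K4me3 score at the ceiling, and H3K27ac covered 50.8 to 89.6% of them (median 75.6%). The lower-scoring H3K27ac peak beside the gap had a median score of 92.3 and scored below 100 in 12 of 21, near the floor of the list. The gap midpoint lay in the central zone of the H3K4me3 peak in 12 of the 21 (57.1%, interval 34.0 to 78.2%), within the counting error of the 42.7% for all gaps.

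The widest gap, in G1, measured 1439 bp. G1 lay on chromosome 2 (24442921 to 24447833, 4913 bp), between an H3K27ac peak of 4473 bp at the ceiling and 1 of 983 bp scoring 163. G2, on the same chromosome (25117321 to 25122761, 5441 bp), had a gap of 1205 bp near its middle, at position 0.53, between H3K27ac peaks of nearly the same width, 2430 and 2439 bp, scoring 2731 and 1472. Of the 5, it had the H3K27ac peaks most alike in width. G3, also on chromosome 2 (84344999 to 84347228, 2230 bp), had a gap of 1030 bp at position 0.49 between weak H3K27ac peaks scoring 130 and 86.6, and its H3K4me3 score of 660 was below the ceiling. G4 and G5 were on chromosome 9 (44945689 to 44949991 and 35228263 to 35231611), with gaps of 866 and 861 bp and lower-scoring H3K27ac peaks of 101 and 99.9. In both of these the stronger H3K27ac peak, scoring 859 and 1808, lay on the low-coordinate side.

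At the other end, the 5 spanning peaks with the lowest H3K4me3 score measured 499 to 732 bp and scored 51.1 to 67.7. In each of them H3K27ac reached past both ends, so the weak H3K4me3 peak sat across a boundary between 2 H3K27ac peaks and did not span either. The lowest was on chromosome 11 (96303025 to 96303523), with H3K27ac peaks scoring 70.9 and 50.3 separated by 7 bp. Another, on the same chromosome (70464604 to 70465163), shared 187 bp with an H3K27ac peak of 6007 bp at the ceiling and 217 bp with 1 of 640 bp scoring 76.1. One more on chromosome 11 (98308370 to 98309059) had the lowest coverage of the 5, 42.2%, with a gap of 399 bp, and the others were on chromosome 11 (71756619 to 71757287) and chromosome 13 (110697361 to 110698092).

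The rule turned on a few bases for some regions. The smaller of the 2 largest overlaps with H3K27ac had a median of 605.5 bp, but it was below 100 bp in 43 spanning peaks and below 10 bp in 6. Just inside the rule was a peak on the X chromosome (98727983 to 98729368), whose second overlap was 1 bp. It was followed by overlaps of 3 bp on chromosome 7 (108983634 to 108987305), 4 bp on chromosome 8 (123095823 to 123099484), 5 bp at W9 and 7 bp on chromosome 3 (58923573 to 58924897). Just outside it, 80 single-overlap peaks had another H3K27ac peak less than 100 bp away. The nearest lay 2 bp from an H3K4me3 peak on chromosome 11 (60035010 to 60037201), 5 bp from another on that chromosome (97881478 to 97885034) and 6 bp from 1 on chromosome 10 (84278918 to 84279560). For peaks on chromosome 3 (89716320 to 89717861) and chromosome 7 (28146603 to 28147282) the distance was 18 bp.

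Spanning peaks lay on every autosome and on the X chromosome, with 1 more on a contig that mm9 does not place and none among the 3 H3K4me3 peaks of the Y chromosome. The X chromosome had the highest share, 26 of 542 H3K4me3 peaks (4.80%, interval 3.16 to 6.95%), and 439 of 17533 autosomal peaks were spanning (2.50%, interval 2.28 to 2.75%). The autosomes ranged from 1.51% on chromosome 1 (16 of 1062, interval 0.864 to 2.44%) to 3.75% on chromosome 9 (36 of 961, interval 2.64 to 5.15%). Restricted to H3K4me3 peaks at the ceiling, the share was 7.97% on the X chromosome (20 of 251, interval 4.93 to 12.0%) and 4.16% on the autosomes (368 of 8843, interval 3.75 to 4.60%). The X chromosome was singled out after its value was seen among 20 chromosomes. H3K27ac scores moved with it: 14.2% of the 786 H3K27ac peaks on the X chromosome were at the ceiling and 24.4% of the autosomal ones, while the H3K4me3 shares at the ceiling were 46.3 and 50.4%. The part of the H3K27ac scores in the difference was not tested. Spanning peaks on the X chromosome resembled the autosomal ones in width (median 2519 and 2687 bp) and in gap (median 87 and 80 bp).

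Spanning and single-overlap peaks were at similar distances from other H3K4me3 peaks, but as called a smaller share of spanning peaks lay in large H3K27ac clusters. The nearest other H3K4me3 peak was at a median of 17413.5 bp (interval 14285 to 20680 bp) from spanning peaks and 16111 bp (interval 15660 to 16647 bp) from single-overlap peaks. Another H3K4me3 peak lay within 1000 bp of 44 spanning peaks (9.44%, interval 6.94 to 12.5%) and of 7.17% of single-overlap peaks (interval 6.76 to 7.59%). H3K27ac peaks within 12500 bp of each other were also stitched into regions, and those with more than 11186 bp of summed peak length were called long. The regions were ranked by this length and not by signal, and H3K27ac peaks that met H3K4me3 were kept. A long region is therefore a stretch with much called H3K27ac, promoters included. Of the spanning peaks, 69 lay in a long region (14.8%, interval 11.7 to 18.4%), as did 19.2% of single-overlap peaks (interval 18.5 to 19.8%). Over all H3K4me3 peaks the share was 16.4%. A peak was counted as in a long region only through an H3K27ac peak it met. The 2525 H3K4me3 peaks that met none were therefore counted as outside, which lowers the share over all peaks. The share was lower in spanning peaks than in single-overlap peaks in each of the 6 width classes: 3 of 15 and 24.5% below 1000 bp, 8.70 and 17.9% from 1000 to 2000 bp, 12.1 and 13.2% from 2000 to 3000 bp, 13.5 and 19.9% from 3000 to 4000 bp, 24.3 and 33.3% from 4000 to 6000 bp and 54.5 and 67.3% at 6000 bp or more. No intervals were computed for these classes, several differences are small, and the direction was not tested. With H3K27ac joined within 200 bp the share in spanning peaks became 20.9% (interval 11.9 to 32.6%). Joined within 500 bp it became 23.8% (interval 8.22 to 47.2%). The spanning peaks left under these joins were wider, with medians of 3595 and 4303 bp. The share in single-overlap peaks was not computed under the joins, so these values do not bear on the contrast between the groups.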

How the data were processed

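Chromatin immunoprecipitation and sequencing was done in cultured Bcr-Abl-driven mouse precursor B-cell leukaemia cells, cross-linked with formaldehyde (11%, per the labels' protocols). MACS made the peak calls, on mm9, per the submitters' processing notes; its version, the aligner, read filters and depth: not given in the sources used here. As deposited by the authors, there is 1 peak list per mark with a score for every peak, used only within its list. The IgG library has no peak list here and was not analysed. The lowest score was 50.01 in both lists.

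Overlaps, gaps and intervals (Clopper-Pearson for percentages, order statistics for medians, 95%) were computed with SciPy 1.17.1, pandas 2.3.3 and NumPy 2.4.6 in Python 3.11.15; bedtools 2.31.1 gave the same number of H3K27ac peaks for every H3K4me3 peak. On simulated lists of 1000 H3K4me3 peaks with 200 spanning ones, 0 numbers and 0 gap lengths were wrong. Peaks were named by fixed rules: the 10 widest spanning peaks, the 10 with most H3K27ac peaks (ties by width), the 5 with the widest gap, the 5 with the lowest H3K4me3 score and the 5 just inside and outside the rule. The rule for the set and the lists were chosen with earlier results of these data known; gap classes, score classes and the look at chromosomes were added after values were seen. The gene tables at hand follow GRCm38.p6 and not mm9, so no genes were assigned and no sequences are printed. Scores, overlap, joining, list length and chromosomes were varied as alternatives.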

Additional observations from a re-analysis of the deposited data

How the results depend on the processing

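The number of spanning peaks depended on how the peaks were divided and filtered. Over 84 values under alternatives, 43 kept to the interval around the value reported (for the count, to 1.5 times) and 41 left it, and no direction was tested, since these are single counts, percentages and medians. The 466 spanning peaks became 290 with scores of at least 100, 154 with an H3K27ac list as long as the H3K4me3 list, 67 with H3K27ac joined within 200 bp and 21 with it joined within 500 bp. It became 589 with H3K4me3 joined within 1000 bp, or 3.37% of the joined H3K4me3 peaks. Fewer H3K27ac peaks leave fewer pairs to span. Median width became 3595 and 4303 bp with H3K27ac joined within 200 and 500 bp, 3038 bp with H3K4me3 joined within 1000 bp and 2983 bp with lists of the same length. The median gap became 330 and 673 bp under the joins of H3K27ac, which remove shorter gaps by construction, and 101 bp under the join of H3K4me3. Median coverage by H3K27ac became 81.6 and 75.6%, and the share in long stitched regions 20.9 and 23.8%, under the same joins of H3K27ac. The share with an H3K4me3 score at the ceiling became 95.5% with lists of the same length and 88.6% with scores of at least 100. The share of gaps in the central zone became 60.9% with lists of the same length, 57.1% with H3K27ac joined within 500 bp, 52.9% with scores of at least 100 and 48.5% with H3K4me3 joined. The causes were not tested. Restricting to autosomes left all 12 results within their intervals (the count within 1.5 times), and so did an overlap of at least 100 bp with 1 exception, the share of H3K4me3 peaks that were spanning, which became 2.33%. No paired analysis was possible because each mark has 1 library. Depth is unknown, so whether a deeper H3K27ac library would close the short gaps cannot be told from these lists.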

Other observations

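Some H3K27ac peaks under a spanning peak also reached a neighbouring H3K4me3 peak, so that the marks alternated like links of a chain. The 466 spanning peaks met 948 H3K27ac peaks, of which 39, in 37 spanning peaks (7.94%, interval 5.65 to 10.8%), also met another H3K4me3 peak. Among single-overlap peaks the H3K27ac peak met another H3K4me3 peak in 1240 (8.18%, interval 7.75 to 8.63%). No pair of neighbouring spanning peaks shared an H3K27ac peak. In the whole lists, neighbouring peaks less than 200 bp apart formed 2176 pairs of H3K27ac peaks and 299 pairs of H3K4me3 peaks.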
